A study of Mus musculus with 2 samples.

Results

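The brush border peptidases described here are 9 mouse genes, Anpep, Enpep, Xpnpep2, Dpp4, Ace, Mme, Mep1a, Mep1b and Ggt1, taken as every non-control probe that carries one of these gene names in the scanner files. The rule matches names and reads no measured value, although earlier results of these data were known when the genes were chosen. They were read by 11 probes and are 9 of 12727 genes measured on both arrays. Each of the 11 probes was well above background on each array, none was saturated or marked as an outlier spot, and so no gene of the group was left out.

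The group treated with cholic acid, a primary bile acid, is 1 array of intestinal epithelial cells from wild type male mice whose intestinal segments were kept for 2 h with 0.5 µM cholic acid. The vehicle group is 1 array of the same kind of cells from segments kept for 2 h with 0.05% DMSO and 0.25% ethanol. A solvent is named in the labels for the vehicle only; the age and number of the mice and the stretch of gut are not given, although both titles carry the letters S_I. The title of the study asks for candidate target genes of the nuclear receptor PPARα that depend on bile acid. With 1 array per condition no test of the treatment exists, and every fold compares 2 arrays with no replicate check.

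Enterocytes carry a dense carpet of ectopeptidases on their microvilli, most of them zinc metalloenzymes. These enzymes finish the digestion of dietary protein by cutting oligopeptides to amino acids, dipeptides and tripeptides that carriers can take up. Several of them also cut peptide hormones. All are made as large glycoproteins with the catalytic part outside the cell.

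The values rest on single oligonucleotides of 60 bases, so pieces of the probes behind the main results are shown 5′ to 3′ with the mm9 positions that the scanner files give. The 2 Mme and 2 Xpnpep2 probes are shown because each pair reads separate stretches of the same gene, and the Mep1a probe because it holds a canonical polyadenylation signal. Capitals mark that signal, or its common variant in the downstream Xpnpep2 probe, and pieces with neither are in lower case throughout. Each piece is 30 bases of its probe.
Mme, upstream probe, chr3:63184793-63184822, plus strand: tttgaacactcttagagcttaaactagagt
Mme, downstream probe, chr3:63185750-63185779, plus strand: aacactgtagctttctgccatcatcatata
Xpnpep2, upstream probe, chrX:45487053-45487082, plus strand: ttcccctgggtttagcactatgtaaaagta
Xpnpep2, downstream probe, chrX:45489804-45489833, plus strand: catggcagtgctATTAAAgcctctcatatc
Mep1a, chr17:43611284-43611313, minus strand: taaggaaaaaacttAATAAAaccactaacg

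The Ggt1 probe is shown whole because it is the only one of the 11 whose 60 bases are spread over more than 60 bases of genome, namely 236 bases (chr10:75048435-75048670, plus strand). It therefore reads spliced RNA, and 1 of its 3 forward reading frames has no stop codon.
Ggt1, whole probe: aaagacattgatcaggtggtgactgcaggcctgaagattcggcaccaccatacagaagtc
Exon and intron annotation of mm9 was not used here.

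Of the 9 genes, Mme and Ace had the most negative differences between the cholic acid and vehicle arrays, Anpep had the most positive, and the other 6 lay between them. After scaling, 7 of 9 genes were below 0 (42.8% of all genes were), 0 of 9 were at least 2-fold lower (2.06% of all genes) and 0 of 9 at least 2-fold higher (6.49%). Mme, the gene of neprilysin, was 1.93-fold lower and Ace, the gene of the angiotensin-converting enzyme, was 1.64-fold lower. Anpep was 1.32-fold higher. The differences of the 9 genes had a median of -0.23 on the log2 scale, against 0.08 over all 12727 genes.

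Scaling matters to these numbers. The unscaled processed signal of all 11 probes was lower on the cholic acid array, at between 0.344 and 0.925 of the vehicle signal. The whole cholic acid array was dimmer, with a 75th percentile of 741 against 1060 on the vehicle array for probes that passed background on each. Dividing each array by that percentile adds 0.52 to every log2 difference (cholic acid minus vehicle), and scaled differences are those quoted unless the text says otherwise.

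**Figure D1:**
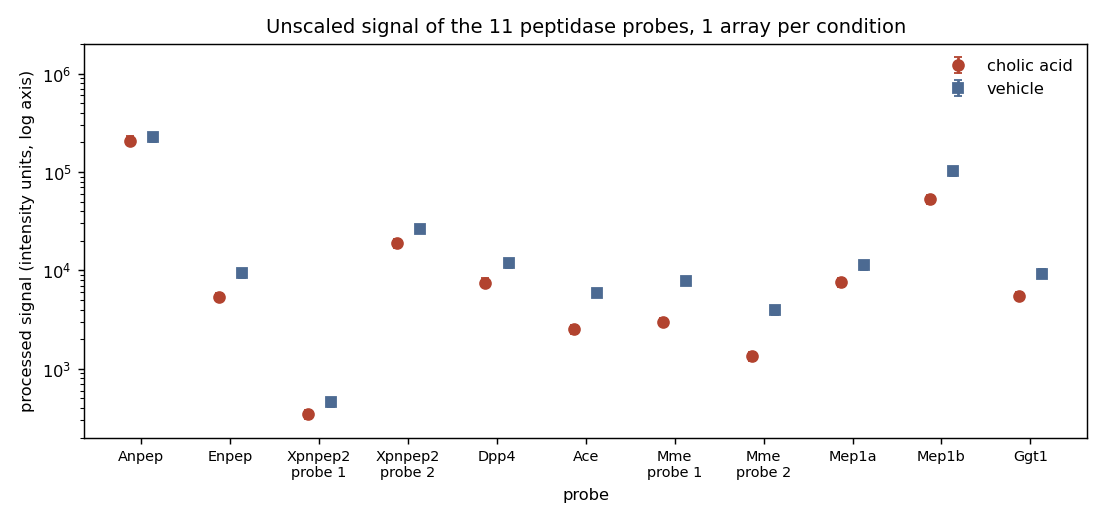
Unscaled processed signal (intensity units, log axis) of the 11 peptidase probes, with cholic acid as circles and vehicle as squares, 1 array each; bars are the scanner software's own error of each spot. Every circle lies below its square, with the closest pair at Anpep (209000 in cholic acid and 226000 in vehicle) and the widest at the downstream Mme probe (1350 in cholic acid and 3920 in vehicle).

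Of the 3 aminopeptidases, which take single residues from the amino end of a peptide, Anpep had a positive difference, Enpep a negative one and Xpnpep2 one inside its scanner error. Anpep encodes aminopeptidase N, which prefers neutral residues. Its processed signal was 209000 ± 20900 on the cholic acid array and 226000 ± 22600 on the vehicle array, where the error is that of the scanner software. These ranges overlap. The scaled difference was 0.40, with a scanner error of 0.20. The sign for Anpep depended on the scaling, because the difference was -0.32 after quantile normalization and -0.31 in the values the authors processed.

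Enpep encodes aminopeptidase A, which removes acidic residues and turns angiotensin II into angiotensin III. It read 5390 ± 539 on the cholic acid array and 9370 ± 937 on the vehicle array, ranges that do not overlap before scaling. After scaling Enpep was 1.22-fold lower (log2 difference -0.28, scanner error 0.20). The gap between the 2 relatives, Enpep lower and Anpep higher, was 0.68 with a combined scanner error of 0.29. Under quantile normalization both genes stood at -0.32, so this gap depends on the scaling.

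Xpnpep2 encodes the membrane-bound aminopeptidase P, which cuts before a proline in the next position. Its downstream probe read 18900 ± 1890 in cholic acid and 26400 ± 2640 in vehicle, and its upstream probe 347 ± 34.9 and 456 ± 45.7 in the same order. The scaled differences of the 2 probes were 0.03 and 0.12, so they lay 0.09 apart. The mean of 0.08 for Xpnpep2 equals the median of all genes to 2 decimals.

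Dpp4 and Ace both release dipeptides. Dpp4, dipeptidyl peptidase 4, cuts after a proline or alanine in the second position and inactivates the incretin hormones. Its signal was 7530 ± 753 on the cholic acid array against 11800 ± 1180 on the vehicle array. The unscaled ranges are separate, but the scaled difference of -0.13 is smaller than its scanner error of 0.20.

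Ace, the angiotensin-converting enzyme, removes a dipeptide from the carboxyl end and makes angiotensin II. It read 2530 ± 253 in cholic acid and 5930 ± 593 in vehicle, and these ranges do not overlap. The scaled Ace difference was -0.71 with a scanner error of 0.20. Of all measured genes, 5.15% had a difference as low or lower. The accessions of the Ace probe in the files name 2 transcripts, so somatic and testis forms of the enzyme cannot be told apart by it.

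Of the 3 endopeptidases, which cut inside a peptide chain, Mme and Mep1b had negative differences beyond their scanner error and Mep1a did not. Mme encodes neprilysin, which degrades enkephalins, natriuretic peptides and other signalling peptides. The upstream Mme probe read 3010 ± 301 on the cholic acid array and 7880 ± 788 on the vehicle array. The downstream probe read 1350 ± 135 and 3920 ± 392 in the same order. Both spots were far dimmer with cholic acid, and neither pair of ranges overlaps. The scaled differences of the 2 probes were -0.87 and -1.02, and their mean of -0.95 was the lowest of the group. In all, 2.42% of measured genes were as low as Mme or lower.

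Mep1a and Mep1b encode the alpha and beta subunits of meprin, an astacin-type metalloprotease. Mep1a read 7550 ± 755 in cholic acid and 11300 ± 1130 in vehicle. Mep1b read 53000 ± 5300 in cholic acid and 102000 ± 10200 in vehicle. The unscaled signals of both subunits were lower in cholic acid with no overlap of ranges. After scaling Mep1a was at -0.07, inside its scanner error of 0.20, and Mep1b at -0.43, or 1.35-fold lower. The 2 subunits lay 0.36 apart, with a combined scanner error of 0.29.

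Ggt1, gamma-glutamyltransferase 1, takes the gamma-glutamyl group from glutathione outside the cell. The Ggt1 probe read 5540 ± 554 on the cholic acid array and 9300 ± 930 on the vehicle array. The ranges are separate before scaling. The scaled difference was -0.23, close to its scanner error of 0.20, and the gene was 1.17-fold lower. The Ggt1 and Ace probes are the richest in G and C of the 11. A smooth correction for probe base composition put Ggt1 at -0.42 and Ace at -0.90.

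The 9 differences ran from -0.95 (Mme) to 0.40 (Anpep), with an SD of 0.41 among genes. Ordered by size they were Mme, Ace, Mep1b, Enpep, Ggt1, Dpp4, Mep1a, Xpnpep2 and Anpep. In 1 of the 8 neighbouring pairs, Xpnpep2 and Anpep, the gap was larger than the combined scanner error (0.33 against 0.25). Mme and Ace differed by 0.23, within an error of 0.25, so that error does not resolve their order. The 2 ends of the order, Mme and Anpep, lay 1.35 apart with an error of 0.25. The scanner error comes from a model in the scanner software. It was about 10% of the signal at each peptidase probe, so the log2 difference of every single probe carries the same error, 0.20. A smaller figure comes from 91 other probes at least as bright as the dimmest peptidase probe and spotted 10 times each, where single spots of a probe gave log2 differences with a median SD of 0.07. Both describe spots on an array and not the spread between mice or segments.

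No gene of the group passed the 2-fold limit, which 2.06% of all genes passed downward and 6.49% upward. At 1.5-fold, 2 of 9 (Mme and Ace) were lower and none higher, where 7.71% of all genes were lower and 17.7% higher. A difference below 0 was seen in 7 of 9 peptidases and in 42.8% of all genes. Brightness bears on this background, since it moves the median: among the 1418 genes at least as bright on average as Xpnpep2, the dimmest peptidase by its mean over probes, 58.0% were below 0 and the median was -0.08, whereas the 100 brightest genes had a median of 0.09. Of those bright genes 2.05% were at least 2-fold lower and 1.9% higher, and at 1.5-fold 9.1% were lower and 7.4% higher. Beside the 200 genes nearest in mean signal, Mme stood 0.84 below their median and Ace 0.56 below. Mep1b stood 0.42 below its own 200 neighbours and Anpep 0.40 above. The other 5 lay between 0.16 below (Enpep) and 0.17 above (Xpnpep2). Of the 200 genes nearest to Mme, 2.00% were as low or lower, and of those nearest to Ace 6.50%.

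**Figure D2:**
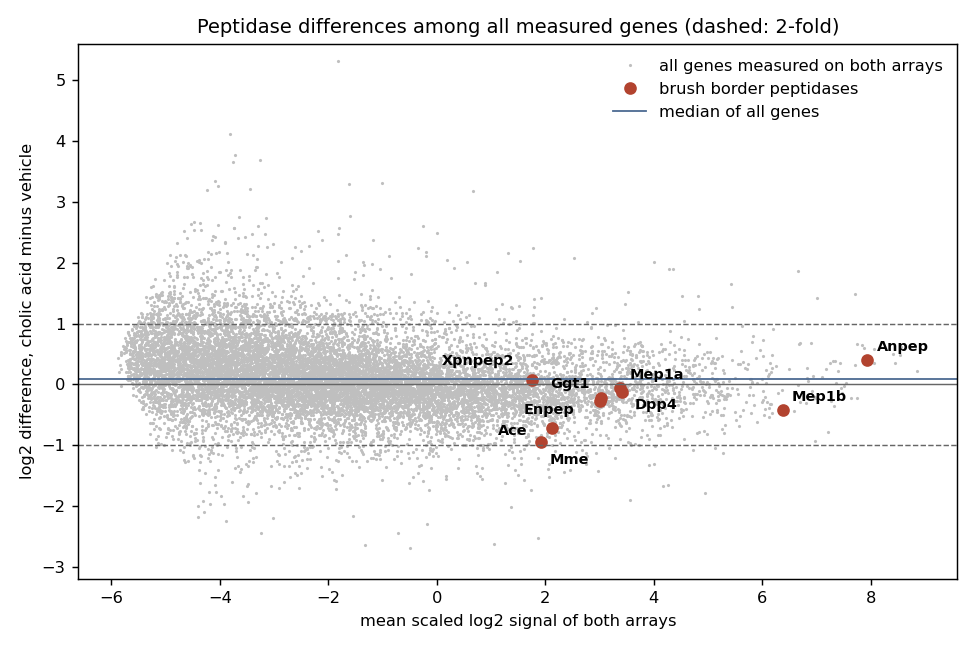
Log2 difference (cholic acid minus vehicle, scaled) against the mean scaled log2 signal of both arrays for 12727 genes (grey) and the 9 peptidases (red); dashed lines mark 2-fold and the blue line the median of all genes, 0.08. All 9 peptidases lie in the bright part, between the dashed lines, with Mme at -0.95 and Anpep at 0.40.

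Under 12 other settings 7 of the 9 genes, all but Anpep and Xpnpep2, kept a negative difference in every one. Mme ran from -1.84 with scaling on the spike-in controls to -0.87 with its brightest probe alone, and Ace from -1.61 to -0.69. The 7 spike-in control probes had an unscaled log2 signal higher by 0.38 on the cholic acid array. Scaling on them put 6 of the 9 genes at least 2-fold lower, and 33.6% of all genes. That scaling also put the median of all genes at -0.81. Set against each setting's own median over all genes, the same 7 genes stayed below 0 throughout, Mme between -1.34 and -0.87. Spike-in scaling, median centring and the percentile over every non-control probe shift all genes alike, so they cannot move a gene against that median. Dropping the filter on dim probes, or replacing it by a 40th percentile limit, moved only that median. Anpep was below that median only after quantile normalization and in the values the authors processed. Xpnpep2 ran from -0.32 to 0.06 around that median.

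**Figure D3:**
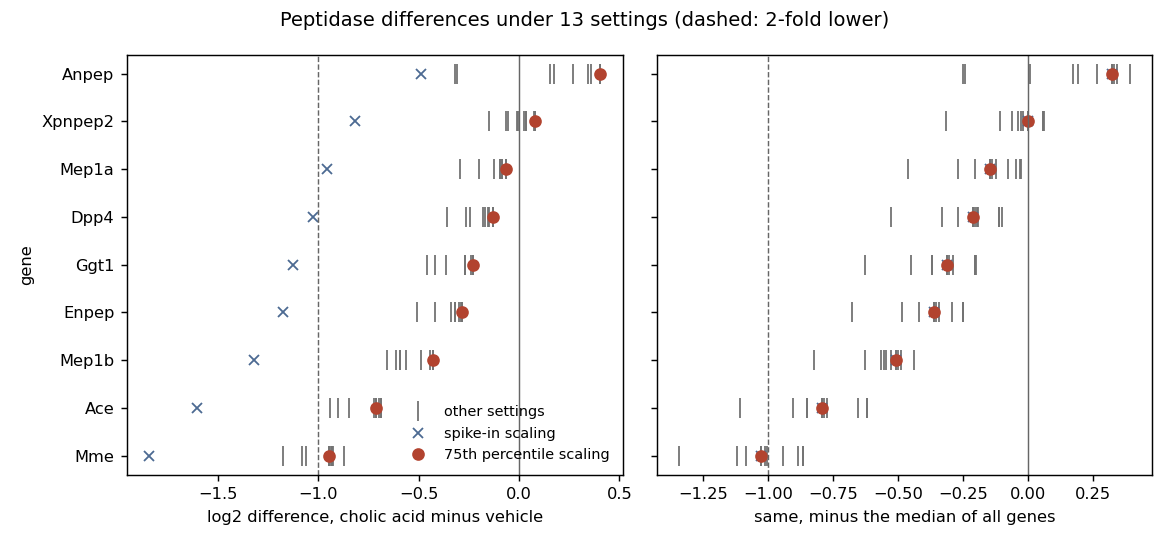
Log2 difference of each peptidase (left) and the same minus the median of all genes (right) under 13 settings; the red circle is the 75th percentile scaling, the cross the spike-in scaling and the bars the other settings. Mme and Ace lie left of 0 in every setting, while Anpep lies on either side of it.

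A list of other apical peptidases also had negative differences, although it takes in Cpq, which is secreted. The list held 13 genes, of which 6 were measured on both arrays, and all 6 were below 0 with a median of -0.34. None was 2-fold apart. Cpq, the secreted carboxypeptidase, had 225 in cholic acid and 637 in vehicle and was 1.98-fold lower, the lowest of the 6. It counts in the median of -0.34, and the others measured lay between -0.43 and -0.04. Ggt6, a relative of Ggt1, was at -0.43, and the dipeptidase Dpep1 at -0.24. Cpm, a membrane carboxypeptidase, stood at -0.24 and Naaladl1, an ileal peptidase, at -0.04. Tmprss15, the enteropeptidase that activates trypsinogen, was well above background on the vehicle array alone (33.2, against 2.89 in cholic acid) and was at least 1.78-fold lower. The remaining 6, Cltrn, Dpep2, Dpep3, Folh1, Lvrn and Naalad2, were not well above background on either array.

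Homologues of the 9 genes outside the brush border gave a median of -0.14 over 17 of 30 genes, 11 of them below 0; with normexp background correction the median was 0.09. Ece1, the endothelin-converting enzyme and a relative of Mme, was 3.44-fold lower at 39.4 in cholic acid and 194 in vehicle, and was 1 of 17 at least 2-fold lower. With that correction Ece1 was at -0.76. Of the cytosolic relatives of the aminopeptidases, Xpnpep1, the soluble aminopeptidase P, was at 0.24, Rnpep at -0.15 and Npepps at -0.33. Mmel1 was well above background on the vehicle array alone (54.2, against 14.1 in cholic acid), with a bound of at least 2.69-fold lower. Phex, like Mmel1 a relative of Mme, passed background with cholic acid only (16.3, against 3.03 in vehicle). Its bound was at least 1.60-fold higher. The signals of Mmel1 and Phex were dim, and these bounds leave out spot error. Another 9 homologues did not pass background on either array and 2 were not matched to a probe.

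Later steps of peptide breakdown and uptake were read from further lists. All 28 cytosolic and lysosomal peptidases on the list were measured, with a median of -0.25, 20 below 0 and none 2-fold apart. The lysosomal cathepsins Ctsz (1.94-fold), Ctss (1.89-fold) and Ctsl (1.62-fold) were lower, whereas Thop1, a soluble oligopeptidase, was at 0.71 with dim signals of 20.0 in cholic acid and 17.5 in vehicle. Pepd, which splits dipeptides ending in proline, was at 0.01. Of the peptide and amino acid carriers 16 of 17 were measured, with a median of -0.23 and 9 below 0. The peptide carrier Slc15a1 was the only one at least 2-fold apart, at a difference of -1.75. Slc6a19, a neutral amino acid carrier, was at 0.06.

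Brush border hydrolases of other substrates had a median of -0.46 over 13 of 15 genes, 11 below 0. Enpp3 (3.74-fold) and Nt5e (2.97-fold), which cut nucleotides at the cell surface, were lower, and the phospholipase Plb1 was 9.06-fold higher. Relative to the median of all genes, each of these 5 lists was below 0 in all 12 other settings. Settings that shift all genes alike, spike-in scaling among them, cannot change these relative values. No test compares these lists with the 9 peptidases, whose median of -0.23 lies inside the range of the 5 list medians (-0.46 to -0.14).

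**Figure D4:**
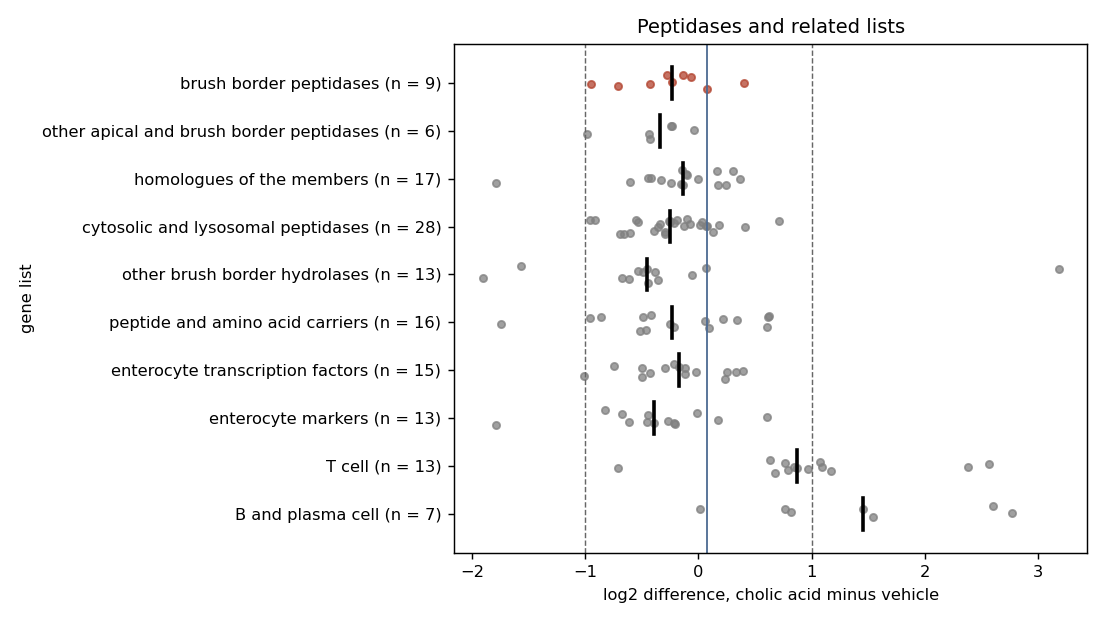
Log2 differences (cholic acid minus vehicle) of the 9 peptidases (red) and of related or marker lists (grey), 1 point per gene measured on both arrays; black bars are medians, the blue line the median of all genes and dashed lines 2-fold. The peptidase median is -0.23, that of the enterocyte markers -0.39 and that of the T cell markers 0.87.

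Markers of the cells that carry these enzymes, and of other cells that could, differed between the arrays. In RNA of mixed cells, fewer cells of a type and less RNA per cell cannot be told apart. All 13 enterocyte markers were measured and 11 were below 0 with a median of -0.39. Their summed scaled signal, in units of the 75th percentile, was 1376 in cholic acid and 1439 in vehicle. The brightest of them, Fabp2, went the other way at 0.61, with 346000 in cholic acid and 325000 in vehicle. Apoa4, an apolipoprotein of chylomicrons, was 3.45-fold lower. T cell markers, of interest because T cells carry Dpp4 (CD26), were higher with a median of 0.87 over 13 of 14 genes and a summed scaled signal of 183 in cholic acid and 117 in vehicle. Cd2, Lat, Gzmb, Cd3d and Cd8b1 were at least 2-fold higher, and 1 of the 13, Cd4, was below 0 at -0.71 with 5650 in cholic acid and 13200 in vehicle. B and plasma cell markers had a median of 1.45 over 7 of 10 genes and sums of 4.53 and 3.28 in that order, with Cd79a, Cd79b, Pou2af1 and Mzb1 at least 2-fold higher and Ms4a1 above background only in cholic acid. Early B cells of the mouse carry Enpep. Myeloid markers, of cells that carry Anpep, had a median of 0.22 over 6 of 10 genes and sums of 10.6 in cholic acid and 11.9 in vehicle, with Itgax at 1.07. Lyz2 passed background only in cholic acid and Adgre1 only in vehicle. Endothelial markers, of cells that carry Ace, had 3 of 10 genes measured. Cdh5, Cldn5, Emcn, Esam, Tek and Tie1 were at background on both arrays. The endothelial sums of 3.87 in cholic acid and 3.14 in vehicle came almost wholly from Kdr, at 0.40. Plvap was at 0.49 and Pecam1 at -0.25. Smooth muscle markers had a median of 0.98 over 5 of 8 genes, with Cnn1 and Myl9 at least 2-fold higher and Des, Myh11 and Synpo2 at background, and sums of 1.15 and 0.861. Fibroblast markers had a median of 0.61 over 6 of 9 genes, with Dcn and Thy1 at least 2-fold higher and Dpt, Lum and Pdgfra at background. The sums were 3.05 in cholic acid and 1.00 in vehicle, most of each from Thy1 (1720 and 598 in that order). T cells of the mouse carry Thy1 too, so these sums are not of fibroblasts alone. Under spike-in scaling, which put the median of all genes at -0.81, the T cell median was -0.02. With that scaling the fibroblast, myeloid, endothelial and distal gut medians were negative too. Gzma, at 0.67, supplied most of the T cell sums and Jchain, at 0.02, most of the B and plasma cell sums. Itgam, at -0.11, supplied most of the myeloid sums and Tagln, at 0.21, most of the smooth muscle sums. The part of these cells in the peptidase differences was not tested.

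Markers of position along the gut differed as well. Markers of the proximal gut had a median of -0.24 over 8 of 9 genes and a summed scaled signal of 243 in cholic acid and 342 in vehicle. Of these, Onecut2 was at -2.30, Apoa4 at -1.79 and S100g at 2.61. Markers of the distal gut had a median of 0.74 over 7 of 8 genes and sums of 45.0 and 36.1 in that order. Fabp6, which binds bile acids inside ileal enterocytes, was at 5.32, Slc10a2, the ileal bile acid carrier, at 2.26 and Gcg at 1.01, while Fgf15 did not pass background on either array. Cubn, the receptor for intrinsic factor, was the 1 gene of the 7 below 0, at -0.94. Fabp6 and Slc10a2 handle bile acids, the class of the treatment, so position and treatment cannot be told apart by them. Peptidases of the brush border are known to be graded along the gut, and the part of position in their differences was not tested.

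Sequence upstream of these genes was set beside the differences because 7 of them lay below 0 together. RefSeq promoter windows of build GRCm38.p6 were available for 8 of the 9, as 14 windows, since Mme, Ggt1 and Ace have several starts; the 250 bases before each start were searched on both strands. The letters searched included TTTATG for the intestinal homeodomain factor CDX2. Among those for zinc finger proteins were AGATAA for GATA factors, CAAAGTCCA for HNF4 and AGGTCA for nuclear receptors in general. The PPAR direct repeat and the FXR inverted repeat, both of which are built from the general receptor motif and so overlap with it, were searched too, as was TATAAA for the core promoter box of that name. TATAAA was in 4 of 14 windows (Dpp4, Enpep, Ggt1 and Ace), against 12.4% of 32851 windows of all genes. These matches began 227 (Dpp4), 52 (Enpep), 134 (Ggt1) and 31 (Ace) bases before the start. All but that of Dpp4 lay on the opposite strand. AGGTCA was in 2 (Ggt1 and Ace), against 14.0%, and AGATAA in 2 (Dpp4 and Ggt1), against 9.99%. The other letters named here matched none of the 14, where TTTATG was in 10.8% of all windows, CAAAGTCCA in 0.384%, the PPAR repeat in 0.033% and the FXR repeat in 0.006%. A match is a string of letters and not a bound site.

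The windows of the 2 genes with the lowest differences, Ace and Mme, are printed for comparison, each the 250 bases before the first start of the gene, on the plus strand of GRCm38.p6. Capitals mark the TATAAA match, which lies on the opposite strand and begins 31 bases before the Ace start. The Mme window held none of the letters named here. G and C made up 67.2% of the Ace window and 45.6% of the Mme window, against a median of 52.4% over all windows. The windows of the other Mme starts had 73.2% and 73.6%, above that of Ace.
Ace, chr11:105967698-105967947: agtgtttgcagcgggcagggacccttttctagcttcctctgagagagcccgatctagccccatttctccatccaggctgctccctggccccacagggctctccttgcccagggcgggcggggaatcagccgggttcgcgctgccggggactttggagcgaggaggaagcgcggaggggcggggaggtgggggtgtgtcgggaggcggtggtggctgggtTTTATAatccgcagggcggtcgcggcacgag
Mme, chr3:63294961-63295210: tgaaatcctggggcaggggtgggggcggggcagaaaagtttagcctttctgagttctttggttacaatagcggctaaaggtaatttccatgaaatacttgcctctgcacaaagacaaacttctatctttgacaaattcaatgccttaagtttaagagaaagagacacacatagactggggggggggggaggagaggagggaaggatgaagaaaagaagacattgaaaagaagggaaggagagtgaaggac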

How the data were processed

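RNA was labelled with Cy3 and hybridised to 2 one-colour Agilent arrays of design 028005, per the labels and the file headers; both arrays lie on the same slide. The deposited processed signal is an intensity that Feature Extraction (10.7.1.1 per the file headers, 9.5.1.1 per the submitters' processing notes) background-subtracted and detrended within the array. The other deposited columns used are the error of that signal, the mean and background intensity and flags for each spot. The authors also deposited processed values of 55681 probes on a linear scale, with a median of 10.1 on each array and nearly identical once sorted, so apparently quantile-normalized; their method is not given in the sources used here.

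Spots marked as outliers were dropped, and log2 signals were averaged by probe. Each array's 75th percentile was subtracted, taken over 22612 probes (40.6%) that passed background on both, and probes were averaged by gene. Genes were named by accession, symbol or synonym through a RefSeq table (GRCm38.p6), and peptidases by the name in the files. With 1 array per condition, no test was made and genes were counted by size. The arrays' number limits precision; 0 spots were saturated. Named genes were the 9 peptidases and every measured gene of the apical peptidase list. Of other lists they were those 2-fold apart, or otherwise up to 4 with the largest difference. Slc6a19, Xpnpep1, Rnpep, Npepps, Phex, Pepd, Cd4, Cubn, Hnf4a, Cdx1, Cdx2, Vil1, Myo1a, Fabp2, Gzma, Jchain, Itgam and Tagln were named after their values were seen. Some genes of the lists are counted in them but not reported here by name. The members and lists were chosen with earlier results of these data known. The counting was tested on simulated data. Tools were Python 3.11.15, statsmodels 0.14.6 and limma 3.58.1.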

Additional observations from a re-analysis of the deposited data

How the results depend on the processing

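The median difference of the 9 peptidases was negative in the 75th percentile scaling (-0.23) and in all 12 alternatives. The median was -0.46 with the percentile over every non-control probe, -0.37 with median centring, -0.32 with quantile normalization, -0.34 with the probe GC lowess, -1.12 with spike-in scaling and -0.31 in the authors' processed values. Relative to the median of all genes, a comparison chosen after seeing the data, it was -0.31, and became -0.20 with loess on signal, -0.45 with normexp and -0.63 with no filter on dim probes, which moves only the median of all genes. The count at least 2-fold lower was 0, but 1 (Mme) with the percentile over all probes, median centring and the GC lowess. The shares of all genes in these settings were 4.22%, 3.07% and 2.96% in that order. The count was 6 with spike-in scaling (33.6% of all genes) and 2 at a 1.5-fold limit (7.71%). Over all genes, 262 were at least 2-fold lower and 826 higher; these were 537 and 416 with the percentile over all probes, 419 and 439 with quantile normalization, 4281 lower and 0.841% of all genes higher with spike-in scaling, 104 and 266 with normexp, 422 and 442 in the authors' values and 613 and 2864 with no filter. They were 391 and 538 with median centring, 374 and 492 with loess, and 362 and 1628 above the 40th percentile. A difference or median was taken as moved when it shifted by 0.07 or more, the median SD between single spots, and a count when it changed by over 1.5 times. Of the values of single genes, lists and all genes, 210 moved and 214 did not. No paired analysis was possible because each condition has 1 array.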

Other observations

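Transcription factors of the enterocyte, several of which are known to act on brush border genes, had a median of -0.17 over 15 of 16 genes, 11 of them below 0. Hnf4g, a nuclear receptor of the villus epithelium, was 2.01-fold lower, with 604 in cholic acid and 1740 in vehicle. Its relative Hnf4a was at -0.17. Cdx2, the intestinal homeobox factor, was at 0.23 and Cdx1 at 0.34.

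Proteins that accompany or shed these peptidases had a median of -0.35 over 9 of 10 genes and none was 2-fold apart. Ada, adenosine deaminase, which binds DPP4 in human, had 42900 in cholic acid and 88800 in vehicle (difference -0.53). The sheddase Adam17 was at -0.43, with dim signals of 18.4 in cholic acid and 35.5 in vehicle, and ran from -1.32 to 0.17 over the settings. The microvillus adhesion proteins Cdhr5 and Cdhr2 were at -0.83 and -0.39, whereas Vil1, an actin bundler of the microvillus core, was at -0.01 and the motor Myo1a at 0.17. Markers of goblet cells (median 0.03 over 6 of 7 genes), Paneth cells (-0.21 over 5 of 7), enteroendocrine cells (0.39 over 9 of 10), tuft cells (0.95 over 4 of 7) and stem and proliferating cells (0.56 over 9 of 10) were measured as well.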
